A study of Homo sapiens with 64 samples.

Results

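The carcinoembryonic antigen-related cell adhesion molecules (CEACAMs) measured here were CEACAM1, CEACAM5, CEACAM6 and CEACAM7. These 4 genes were taken by symbol, through their Ensembl identifiers, from the 54127 genes counted in each of 64 RNA sequencing samples of colorectal cancer cell lines. All 4 symbols had a row. Of the 64 samples, 48 were cells sorted from CFSE-labeled spheroids of 6 lines (HT55 and SW948, RKO and SW48, and DLD1 and HCT15), on day 6, with 4 replicates of label-retaining cells (LRCs, called dormant in the labels) and 4 of cycling non-LRCs (BULK in the labels) from each line. CFSE is a cell-permeable dye whose signal drops with every division, which leaves slowly dividing cells bright. The other 16 samples were DLD1 controls with or without CFSE (the unlabeled ones received DMSO according to the labels), on day 1 and on day 5 according to the labels (day 6 in the design text), with 4 replicates per group. All lines were grown as non-adherent spheroids with bFGF and EGF, and each line is a single established culture. HT55 and SW948 were assigned by the study to subtype CCS1, RKO and SW48 to CCS2, and DLD1 and HCT15 to CCS3. The comparisons address how the family differed between lines, between LRCs and non-LRCs of a line, and with dye and time in culture. The methods call the replicates biological quadruplicates, and nothing in the labels says that they came from separate cultures, so the p-values measure the spread between these samples, part of which may be technical.

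CEACAMs are cell surface glycoproteins of the immunoglobulin superfamily that bind each other between neighboring cells. CEACAM5, the carcinoembryonic antigen measured in serum of patients with colorectal cancer, CEACAM6 and CEACAM7 are held in the membrane by a glycosylphosphatidylinositol (GPI) anchor. CEACAM1 spans the membrane, and its longer cytoplasmic tail carries tyrosine motifs that recruit the phosphatases SHP-1 and SHP-2. In normal colon the 4 proteins lie on the apical surface of columnar cells, with CEACAM7 at the top of the crypt. CEACAM5 and CEACAM6 are often increased in colorectal carcinoma, where CEACAM7 and CEACAM1 are often decreased.

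The family lies on chromosome 19q13. In GENCODE on GRCh37, CEACAM7 (ENSG00000007306) spans chr19:42177231-42210895 on the minus strand, CEACAM5 (ENSG00000105388) chr19:42212504-42234353 on the plus strand, CEACAM6 (ENSG00000086548) chr19:42254885-42276116 on the plus strand and CEACAM1 (ENSG00000079385) chr19:43011456-43065386 on the minus strand. Their exons cover 2653, 3986, 2956 and 5527 bases, respectively. The genes are near copies of each other, and this bears on 50-base reads. The longest stretches of coding exon shared exactly by 2 members, which a read cannot tell apart, are shown on the coding strand for the 3 pairs in which they exceeded a read. The CEACAM1 and CEACAM5 run of 68 bases lies in exon 3 of both genes (chr19:43026173-43026240, minus strand, and chr19:42219004-42219071, plus strand). For CEACAM1 and CEACAM6, 71 bases are shared in exon 2 (chr19:43031258-43031328, minus strand, and chr19:42260732-42260802, plus strand), and for CEACAM5 and CEACAM6, 65 bases in exon 4 (chr19:42219617-42219681 and chr19:42265925-42265989, both plus strand).
CEACAM1 and CEACAM5: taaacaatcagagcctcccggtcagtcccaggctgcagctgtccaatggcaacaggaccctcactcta
CEACAM1 and CEACAM6: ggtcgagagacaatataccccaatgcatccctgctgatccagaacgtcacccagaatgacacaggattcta
CEACAM5 and CEACAM6: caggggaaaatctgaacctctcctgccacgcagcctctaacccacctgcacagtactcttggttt
Over whole genes, 50-base windows that also occur elsewhere in the genome or in transcripts of other genes made up 5.12% of CEACAM1, 9.24% of CEACAM5 and 7.22% of CEACAM6, and 0% of CEACAM7. Reads from such windows were not assigned to a gene by the counting program, so levels of the first 3 genes are slightly understated, and the great majority of each gene could be counted. Exons of another annotated gene on the same strand, ENSG00000267881, cover 3.49% of the CEACAM5 and 4.67% of the CEACAM6 exon bases. Exons of the antisense gene LIPE-AS1 cover 3.35% of the CEACAM1 exon bases. Whether the counting used strand is not given in the sources used here.

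CEACAM5, CEACAM6 and CEACAM7 were called higher in LRCs across lines, so the 250 bases before the start of each gene are shown, from RefSeq on GRCh38.p14 and in the direction of transcription. The 4 members all had an entry. CEACAM1 lies at chr19:42528482-42528731 (minus strand), CEACAM5 at chr19:41708376-41708625 (plus), CEACAM6 at chr19:41755280-41755529 (plus) and CEACAM7 at chr19:41688271-41688520 (minus). Capitals mark 3 motifs, each searched on both strands. The first is the E-box, whose letters are CACGTG. The second is the GC box, spelled GGGCGG, which lies on the opposite strand in CEACAM1 and appears there as its reverse complement. The third is the TATA box, spelled TATAAA.
CEACAM1: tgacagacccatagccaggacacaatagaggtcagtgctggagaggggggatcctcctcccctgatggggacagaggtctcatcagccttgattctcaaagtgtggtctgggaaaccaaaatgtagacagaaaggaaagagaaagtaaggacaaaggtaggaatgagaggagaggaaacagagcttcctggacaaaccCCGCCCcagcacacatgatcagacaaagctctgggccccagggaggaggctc
CEACAM5: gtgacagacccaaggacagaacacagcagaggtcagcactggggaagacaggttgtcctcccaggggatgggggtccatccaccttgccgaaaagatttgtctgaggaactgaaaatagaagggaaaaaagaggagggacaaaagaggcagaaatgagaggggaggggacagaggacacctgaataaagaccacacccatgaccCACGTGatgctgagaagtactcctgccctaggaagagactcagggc
CEACAM6: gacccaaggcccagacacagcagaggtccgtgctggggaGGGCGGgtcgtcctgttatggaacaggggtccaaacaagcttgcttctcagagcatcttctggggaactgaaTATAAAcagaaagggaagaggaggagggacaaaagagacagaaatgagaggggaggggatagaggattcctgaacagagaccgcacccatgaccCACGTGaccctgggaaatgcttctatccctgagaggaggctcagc
CEACAM7: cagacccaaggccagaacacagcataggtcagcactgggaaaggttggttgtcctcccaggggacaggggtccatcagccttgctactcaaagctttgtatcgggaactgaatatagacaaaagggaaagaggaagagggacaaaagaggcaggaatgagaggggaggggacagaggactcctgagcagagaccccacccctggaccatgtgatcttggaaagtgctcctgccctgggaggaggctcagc
The E-box was found in CEACAM5 and CEACAM6, with its first base at positions -46 and -45 from the start, and in neither CEACAM1 nor CEACAM7. It occurred in 6.34% of 35116 promoters of the same length. CEACAM1 and CEACAM6 held a GC box (first base at -52 and -211), which 42.6% of promoters held. CEACAM6 held the letters TATAAA with the first base at -139, and 10.7% of promoters held them anywhere in the 250 bases. None of the 3 motifs was found in CEACAM7, which is among the 3 genes called across lines. The 4 sequences were 76.3% to 84.4% identical in pairs, and a match of letters is not evidence of binding.

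Library depth was 12237225 to 20913455 counted reads per sample, with a median of 15063858. Levels are given as CPM, the reads of a gene in every 1000000 counted reads after TMM scaling of library sizes, and 3 counts in a library corresponded to 0.145 to 0.270 CPM. Summed over 10 colorectal epithelial markers, the sorted samples of HT55, SW948, SW48, DLD1 and HCT15 held 2723 to 19091 CPM, whereas RKO held 219.6 to 335 CPM with 7 of the 10 markers at 1 CPM or more. Among the leukocyte markers, CD3E was at 0 in every sorted line, LYZ reached 1352 CPM on average in SW948, and CD68 reached 1227 CPM in RKO. By correlation over all genes, 3 libraries were nearer to another group than to their own by more than 0.005 in r. HT55 non-LRC replicate 2 correlated with LRCs at 0.993 and with the other non-LRCs at 0.988, SW948 LRC replicate 4 with non-LRCs at 0.997 and with the other LRCs at 0.990, and unlabeled day 1 replicate 4 of the controls with unlabeled day 5 at 0.994 and with its own group at 0.978. Results that rest on these libraries are given with and without them. The libraries were picked for lying near the group they are compared with, so leaving them out favors wider differences over all genes. Those refits are therefore no independent support. These are bulk samples, in which fewer cells of a type and less RNA per cell cannot be told apart.

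CEACAM levels differed between lines over several orders of magnitude. HT55 had the highest mean of all 4 genes, SW948 was next, and RKO was at or near 0. Of all reads counted on CEACAM5 in the 64 samples, 91.6% came from HT55 and 7.32% from SW948. The same lines held 89.8% and 7.66% of CEACAM6, 63.05% and 34.0% of CEACAM1, and 59.9% and 38.2% of CEACAM7.

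**Figure D1:**
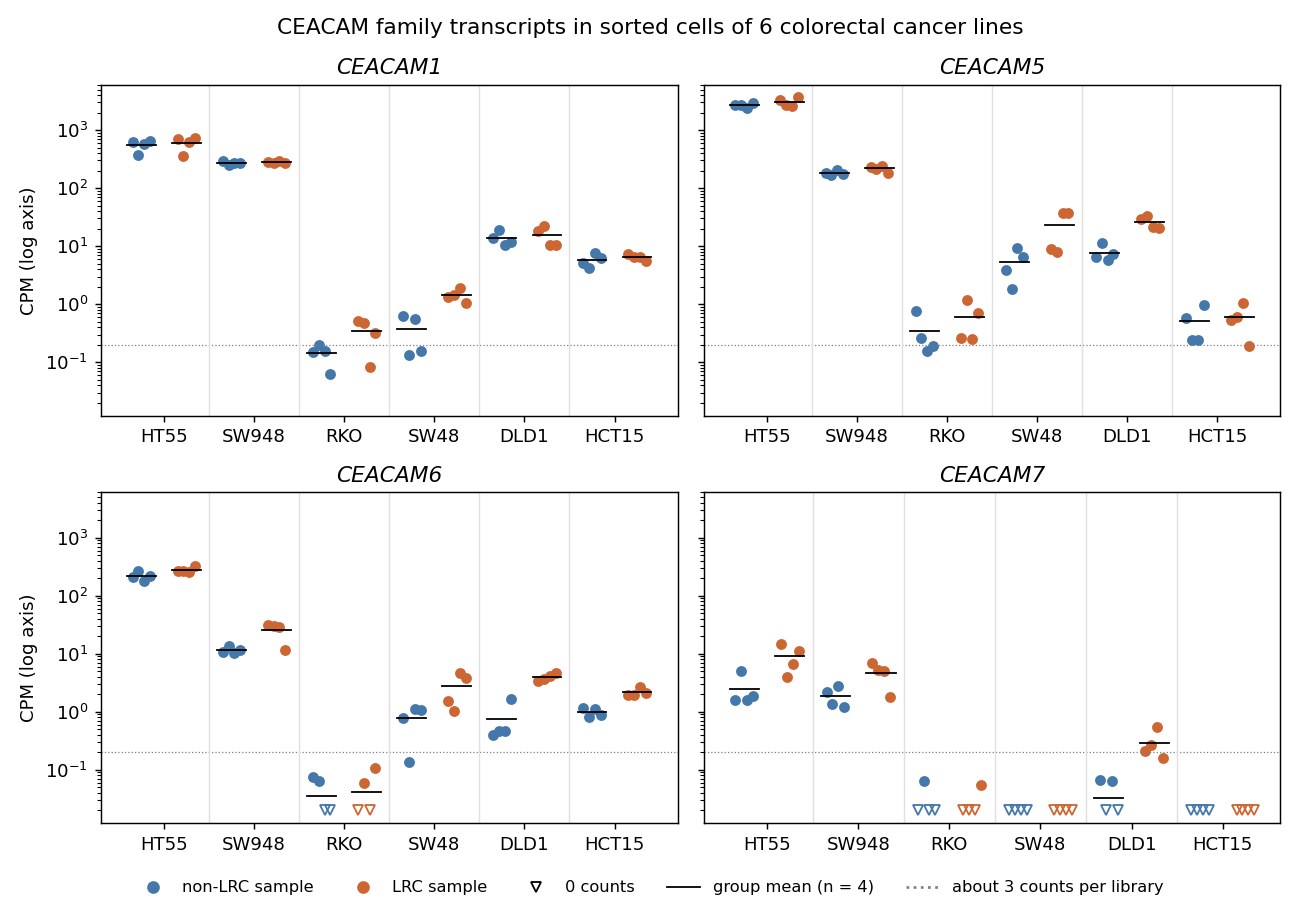
CPM on a log axis of CEACAM1, CEACAM5, CEACAM6 and CEACAM7 in each of the 48 sorted samples, by line and population, with horizontal bars for group means, a dotted line near 3 counts per library and open triangles for samples at 0. HT55 has the highest mean for each gene, and all CEACAM7 samples of SW48 and HCT15 are open triangles at 0.

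CEACAM1, the transmembrane member, was the gene with a distinct level in nearly every line. In non-LRC replicates 1 to 4 it stood at 632, 377, 577 and 638 CPM in HT55 and at 297, 253, 273 and 269 CPM in SW948. DLD1 held 13.7, 19.0, 10.7 and 11.7 CPM, and HCT15 held 5.03, 4.23, 7.71 and 6.14 CPM. SW48 held 0.635, 0.135, 0.554 and 0.155 CPM, and the 4 RKO samples together held 8 counts. The ranges of HT55, SW948, DLD1, HCT15 and SW48 did not overlap, in that descending order. In one fit of the 24 non-LRC samples, edgeR's quasi-likelihood test with Benjamini-Hochberg adjusted p-values separated 14 of the 15 pairs of lines for CEACAM1. The exception was SW48 against RKO (log2 difference 1.38, adjusted p = 0.118). The background is high for such comparisons, since 71.2% of all tests of a gene in a pair of lines passed.

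The order of CEACAM5 was HT55, SW948, DLD1, SW48, HCT15 and RKO. HT55 non-LRCs held 2730, 2684, 2371 and 2918 CPM, and SW948 held 182, 168, 203 and 179 CPM. Every HT55 sample was above every SW948 sample, and the log2 difference was 3.90. DLD1 held 6.46, 11.2, 5.68 and 7.47 CPM, SW48 3.95, 1.82, 9.41 and 6.53 CPM, and HCT15 0.578, 0.245, 0.237 and 0.955 CPM. DLD1 and SW48 overlapped and their difference did not pass the test (log2 difference 0.51, adjusted p = 0.117), nor did that of HCT15 and RKO (0.57, adjusted p = 0.525). The other 13 pairs passed.

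CEACAM6, another GPI-anchored member, followed the same first places and then a different order. Its non-LRC levels were 208, 268, 181 and 215 CPM in HT55 and 10.8, 13.3, 10.4 and 11.7 CPM in SW948. HCT15, SW48 and DLD1 held means of 0.992 CPM (SD 0.177), 0.776 CPM (SD 0.454) and 0.737 CPM (SD 0.598), with overlapping ranges, and none of the differences between neighbors passed (adjusted p = 0.418 and 0.829). In total 12 of 15 pairs passed. In RKO, CEACAM6 was supported by 2 counts in the 4 non-LRC samples and 3 in the 4 LRC samples.

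CEACAM7, a marker of the crypt top, was detected at a useful level only in HT55 and SW948. The HT55 non-LRCs held 1.58, 4.97, 1.60 and 1.84 CPM and the SW948 non-LRCs 2.22, 1.36, 2.83 and 1.21 CPM. These ranges overlapped, and the difference did not pass (log2 difference 0.41, adjusted p = 0.333), unlike CEACAM1, CEACAM5 and CEACAM6, for which HT55 was above SW948. DLD1 non-LRCs held 2 counts in 4 samples and RKO non-LRCs 1 count. SW48 and HCT15 were at 0 in all 8 sorted samples, which allows up to 0.0516 CPM over the SW48 non-LRCs and 0.0461 CPM over the HCT15 non-LRCs, for counting error only. CEACAM7 passed in 8 of 15 pairs, each of them HT55 or SW948 against another line.

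The few reads in the low lines need care. The shares and the cutoff in this paragraph use CPM without TMM scaling. On that scale RKO non-LRCs held 0.0285% of the HT55 level for CEACAM1, 0.0144% for CEACAM5 and 0.0183% for CEACAM6. Among the 2170 genes above 100 CPM in HT55, the lowest 1% of genes in RKO were at or below 0.0152% of HT55. CEACAM5 in HCT15 stood at 0.0247% of HT55, where the lowest 1% of genes were at or below 0.111%. CEACAM1 in SW48 stood at 0.0745%, against 0.0648% for the lowest 1%. Whether these reads came from the cells of those lines was not tested.

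Levels of different genes were compared per length, as RPKM (CPM divided by the length of the exons in kilobases). In HT55 non-LRCs, CEACAM5 stood at 671 RPKM (SD 56.9, n = 4), CEACAM1 at 101 RPKM (SD 22.2), CEACAM6 at 73.7 RPKM (SD 12.3) and CEACAM7 at 0.941 RPKM (SD 0.623). CEACAM5 was 9.24-fold above CEACAM6 there (SD 1.22 over 4 samples). SW948 had no such excess over CEACAM1: CEACAM1 stood at 49.3 RPKM (SD 3.30) and CEACAM5 at 45.9 RPKM (SD 3.70), with a ratio of 1.08 (SD 0.0840). The ratio of CEACAM5 to CEACAM6 was 11.9 in SW948, close to that of HT55. In DLD1 the ratio of CEACAM1 to CEACAM5 was 1.31 in non-LRCs (SD 0.174) and 0.419 in LRCs (SD 0.0679), so that the leading member on this scale was CEACAM1 in the former and CEACAM5 in the latter. In HCT15 CEACAM1 led in both populations, at 1.05 RPKM in non-LRCs and 1.18 RPKM in LRCs.

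**Figure D2:**
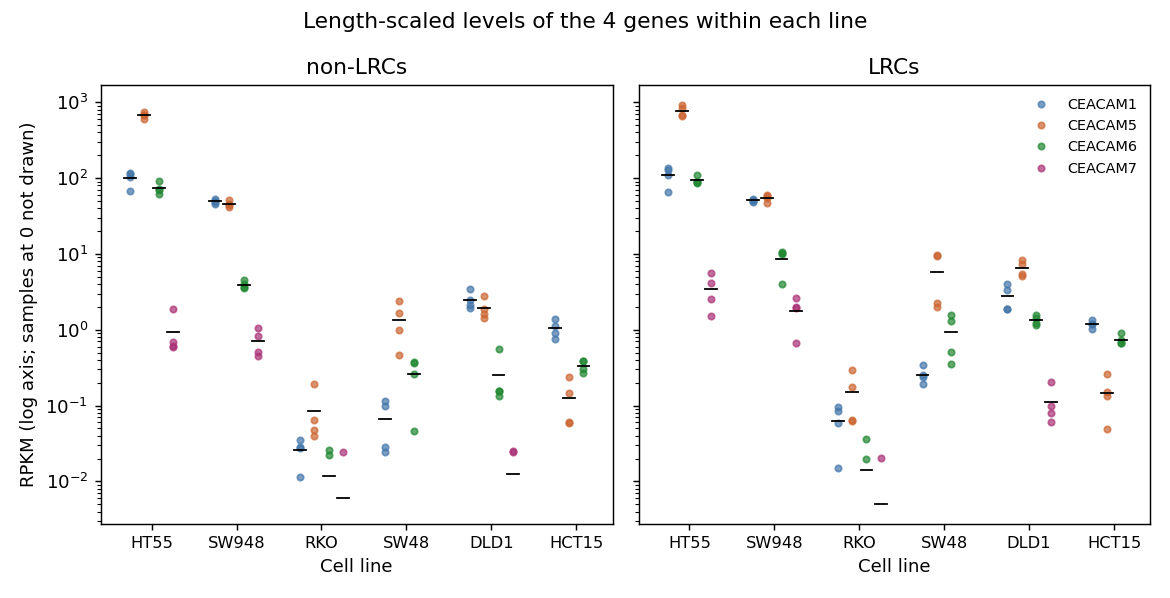
RPKM on a log axis of the 4 genes in each line, with non-LRCs and LRCs in separate panels. Points are samples (those at 0 are not drawn) and bars are means over 4 samples. CEACAM5 leads in HT55, CEACAM1 and CEACAM5 lie side by side in SW948, and CEACAM1 leads in HCT15.

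Across the 6 lines, 3 of the 4 genes were higher in LRCs than in non-LRCs. With line as a covariate over 48 samples, the log2 fold change was 0.91 (SE 0.19, edgeR adjusted p = 0.000332) for CEACAM5, 1.02 (SE 0.15, adjusted p = 3.39e-06) for CEACAM6 and 1.63 (SE 0.27, adjusted p = 3.42e-05) for CEACAM7. CEACAM1 had a value of 0.20 (SE 0.11, adjusted p = 0.174), which did not pass, although it did with DESeq2 (adjusted p = 0.0343). Of all 16603 genes tested, 12.2% were called higher in LRCs. The 3 calls remained when any 1 line was left out, with CEACAM5 between 0.63 and 1.18, CEACAM6 between 0.86 and 1.51 and CEACAM7 between 1.40 and 1.89. Without the 2 sorted libraries that stood apart, the values were 0.98 for CEACAM5 (adjusted p = 0.000161), 1.17 for CEACAM6 (4.74e-08) and 1.998 for CEACAM7 (3.35e-07), and 0.17 for CEACAM1 (0.249). The difference between CEACAM1 and the other 3 genes was not tested, and the value of CEACAM7 rests on HT55, SW948 and few reads in DLD1.

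**Figure D3:**
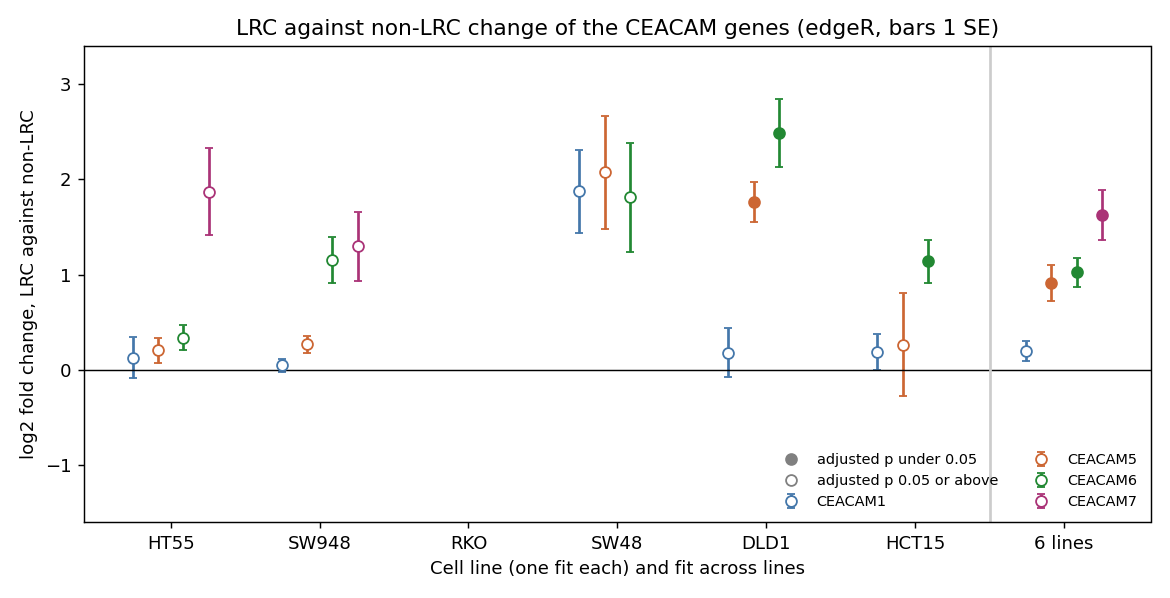
Log2 fold change of LRCs over non-LRCs (points) with 1 SE on either side (lines) for each gene in each line and across the 6 lines; filled points have an edgeR adjusted p below 0.05. CEACAM5 and CEACAM6 are filled in DLD1 and CEACAM6 in HCT15, CEACAM1 lies near 0 in every tested line but SW48, and all tested values lie above 0.

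The size of the LRC difference varied with line for CEACAM5 and CEACAM6. The test of line by population gave adjusted p = 0.00601 for CEACAM5 and 0.00970 for CEACAM6, and 0.169 for CEACAM1 and 0.851 for CEACAM7, by edgeR's quasi-likelihood test. Over all genes, 14.3% passed this test. CEACAM1 passed too with DESeq2 (adjusted p = 0.00470) and when replicate number was a block (edgeR adjusted p = 0.00296). With the block CEACAM5 (5.85e-08) and CEACAM6 (0.000264) passed as well, beside 5583 genes. The edgeR calls without a block depended on the replicate numbers kept, each of which spans every line and both populations. When each number was left out in turn, 0 to 1 of the 4 members passed. The adjusted p then lay between 0.00329 and 0.121 for CEACAM5 and between 0.00241 and 0.145 for CEACAM6. Leaving out number 1 took both calls, with 522 genes passing in all against 2380 with every sample.

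DLD1 was the line in which 2 members passed. Non-LRC replicates 1 to 4 held 6.46, 11.2, 5.68 and 7.47 CPM of CEACAM5, and LRCs held 29.0, 32.7, 21.7 and 20.2 CPM. Every LRC sample was above every non-LRC sample, with a ratio of means of 3.36 and a log2 fold change of 1.76 (SE 0.21, edgeR adjusted p = 0.00122). CEACAM6 stood at 0.395, 0.460, 0.457 and 1.63 CPM in non-LRCs and 3.42, 3.63, 4.20 and 4.68 CPM in LRCs. Again the groups did not overlap, although non-LRC replicate 4 was well above the other non-LRCs, and the ratio of means was 5.41 (log2 fold change 2.49, SE 0.36, adjusted p = 0.00228). Leaving out that sample, the highest of the non-LRCs, had to raise the log2 fold change, which became 3.17 (edgeR adjusted p = 0.00110). In that refit only LRC samples carried CEACAM6 past the filter, so it adds no support. CEACAM1 differed little, with 13.7, 19.0, 10.7 and 11.7 CPM in non-LRCs and 18.3, 22.4, 10.5 and 10.5 CPM in LRCs (log2 fold change 0.18, adjusted p = 0.687), and its groups overlapped. These 2 calls stand beside 6.67% of genes called higher in LRCs of DLD1. CEACAM6 passed the filter on low counts through its LRC samples, since only 1 non-LRC sample reached 10 counts; a gene that enters in this way had to differ.

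CEACAM7 in DLD1 was too low for the filter. It had 1, 0, 1 and 0 counts in the non-LRC samples and 3, 4, 8 and 2 counts in the LRC samples, in order of replicate. The groups did not overlap. The total of 17 against 2 counts gave a ratio of 8.80 in CPM, with a 95% interval of 2.09 to 78.6 that covers counting error only, and the exact two-sided permutation test gave p = 0.0286, the smallest possible with 4 against 4.

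HCT15 differed in CEACAM6 alone. CEACAM6 held 1.16, 0.797, 1.13 and 0.887 CPM in non-LRCs and 1.98, 1.96, 2.67 and 2.14 CPM in LRCs, without overlap. The log2 fold change was 1.14 (SE 0.22, edgeR adjusted p = 0.0460), against 0.728% of genes called higher in LRCs of this line. The call was lost on leaving out any 1 library or any replicate number, while the log2 fold change stayed between 1.02 and 1.27. Fitting all 48 sorted samples together also lost it (edgeR adjusted p = 0.0983). It held with DESeq2 (adjusted p = 0.0109, beside 531 genes called in either direction) and with replicate number as a block (edgeR adjusted p = 0.00248, beside 2987 genes). CEACAM1 (5.03, 4.23, 7.71 and 6.14 CPM against 7.45, 6.61, 6.50 and 5.57 CPM) and CEACAM5 (means of 0.504 and 0.591 CPM) overlapped between populations and did not pass (adjusted p = 0.636 and 0.824). On the RPKM scale, the ratio of CEACAM1 to CEACAM6 was 3.13 in non-LRCs (SD 0.668) and 1.63 in LRCs (SD 0.336).

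In SW48 all 3 detected genes had higher values in LRCs, and whether they passed depended on the fit. CEACAM1 had few reads, with 0.635, 0.135, 0.554 and 0.155 CPM in non-LRCs and 1.31, 1.41, 1.89 and 1.05 CPM in LRCs, and the groups did not overlap. CEACAM5 held 3.95, 1.82, 9.41 and 6.53 CPM in non-LRCs and 9.06, 7.96, 38.0 and 37.3 CPM in LRCs. CEACAM6 held 0.776, 0.135, 1.11 and 1.09 CPM and 1.52, 1.04, 4.68 and 3.86 CPM. For CEACAM5 and CEACAM6 the groups overlapped, yet within each replicate number the LRC sample was the higher in 4 of 4 pairs, and replicates 3 and 4 of the LRCs stood well above 1 and 2. In the fit without pairing, the log2 fold changes were 1.87 for CEACAM1 (SE 0.43, edgeR adjusted p = 0.0921), 2.07 for CEACAM5 (SE 0.60, adjusted p = 0.176) and 1.81 for CEACAM6 (SE 0.57, adjusted p = 0.210), so 0 of 3 passed. All 3 had an unadjusted p below 0.05, as did 1728 of 13196 genes, and 0.72% of genes were called higher in LRCs. When replicate number was a block in the fit, all 3 passed, with values of 1.93 (adjusted p = 0.0130), 2.01 (0.000185) and 1.81 (0.00431) beside 9.69% of genes called in either direction. DESeq2 without pairing called CEACAM1 (adjusted p = 0.0180) beside 2.74% of genes. CEACAM1 passed the filter through its LRC samples alone and so had to differ, which leaves CEACAM5 and CEACAM6 as the calls of the block that did not depend on the filter in this way.

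In SW948, which carries the second highest levels, the LRC values depended on 1 library. CEACAM6 held 10.8, 13.3, 10.4 and 11.7 CPM in non-LRCs and 30.9, 30.5, 29.4 and 11.8 CPM in LRCs. CEACAM7 held 2.22, 1.36, 2.83 and 1.21 CPM in non-LRCs and 6.90, 5.21, 5.06 and 1.79 CPM in LRCs. For both genes 3 LRC samples were above all non-LRCs, and LRC replicate 4, the library nearer to non-LRCs over all genes, lay in their range. CEACAM5 held 182, 168, 203 and 179 CPM in non-LRCs and 234, 216, 239 and 186 CPM in LRCs, where replicate 4 again was within the non-LRC range. With all 8 samples the log2 fold changes were 0.27 for CEACAM5 (SE 0.09, edgeR adjusted p = 0.187), 1.15 for CEACAM6 (SE 0.24, adjusted p = 0.133) and 1.30 for CEACAM7 (SE 0.37, adjusted p = 0.159). No member passed in this fit, in which 0% of genes were called higher and 2350 genes, these 3 among them, had an unadjusted p below 0.05. DESeq2 called CEACAM6 (adjusted p = 0.0334) and CEACAM7 (0.0305), beside 1.78% of genes. Without LRC replicate 4, edgeR gave 0.34 for CEACAM5 (adjusted p = 0.0115), 1.40 for CEACAM6 (1.5e-06) and 1.58 for CEACAM7 (0.000957), beside 14.5% of genes called in either direction. That library was left out for its closeness to non-LRCs, so the wider differences are no independent support.

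CEACAM1 held nearly the same level in both SW948 populations. Its samples held 297, 253, 273 and 269 CPM in non-LRCs and 284, 271, 288 and 275 CPM in LRCs. The groups overlapped, and the log2 fold change of 0.05 (SE 0.07, edgeR adjusted p = 0.766) was 0.06 without LRC replicate 4.

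In HT55, the line with the highest levels, differences were small for the abundant members. CEACAM5 held 2730, 2684, 2371 and 2918 CPM in non-LRCs and 3326, 2690, 2635 and 3676 CPM in LRCs, and CEACAM1 held 632, 377, 577 and 638 CPM and 711, 361, 615 and 740 CPM. Both overlapped (log2 fold changes 0.20 and 0.13, edgeR adjusted p = 0.774 and 0.929). Replicate 2 was lowest for CEACAM1 in both populations. CEACAM6 held 208, 268, 181 and 215 CPM in non-LRCs and 266, 264, 253 and 320 CPM in LRCs (log2 fold change 0.34, SE 0.13, adjusted p = 0.618). CEACAM7 showed the widest difference, from 1.58, 4.97, 1.60 and 1.84 CPM to 14.9, 4.03, 6.68 and 11.0 CPM (log2 fold change 1.87, SE 0.45, adjusted p = 0.496). Non-LRC replicate 2, nearer to LRCs over all genes, was the highest non-LRC sample for CEACAM6 and CEACAM7 and alone made the groups of both genes overlap with the LRCs. No member passed in this fit, nor with DESeq2. CEACAM6 and CEACAM7 had an unadjusted p below 0.05, as did 1005 genes in all, and 0% of genes were called higher. Without that library CEACAM6 (0.46, adjusted p = 0.0314) and CEACAM7 (2.46, adjusted p = 0.00476) passed, beside 3.92% of genes called in either direction, and CEACAM1 turned to -0.01.

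RKO gave no test of the family. CEACAM5 had 19 counts in the non-LRCs and 39 in the LRCs, CEACAM1 had 8 and 21, CEACAM6 had 2 and 3, and CEACAM7 had 1 and 1. No member reached 10 counts in 4 samples, while 20.4% of the tested genes were called higher in RKO LRCs.

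The DLD1 controls held less CEACAM1 and CEACAM5 than the sorted DLD1 samples. CEACAM1 was between 0.390 and 3.23 CPM in the 16 controls, and between 10.5 and 22.4 CPM in the 8 sorted samples. CEACAM5 lay between 0.0687 and 1.74 CPM in the controls and between 5.68 and 32.7 CPM in the sorted samples. Neither gene overlapped between the experiments. The share of all genes that separated in this way was not counted, so the separation cannot be read as particular to these genes. The day 5 controls, which the design text puts on the same day 6 as the sorted samples, held 1.15 to 3.09 CPM of CEACAM1 and at most 1.64 CPM of CEACAM5. CEACAM6 did overlap between controls and sorted non-LRCs, with a mean of 0.862 CPM in unlabeled day 5 controls and 0.737 CPM in the non-LRCs. The sorted LRCs, at 3.42 to 4.68 CPM, were above every control (at most 1.24 CPM). Sorting and the experiment cannot be told apart here, and no test was made across them. CEACAM7 had 0 counts in all 16 controls, which allows up to 0.0112 CPM over them.

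**Figure D4:**
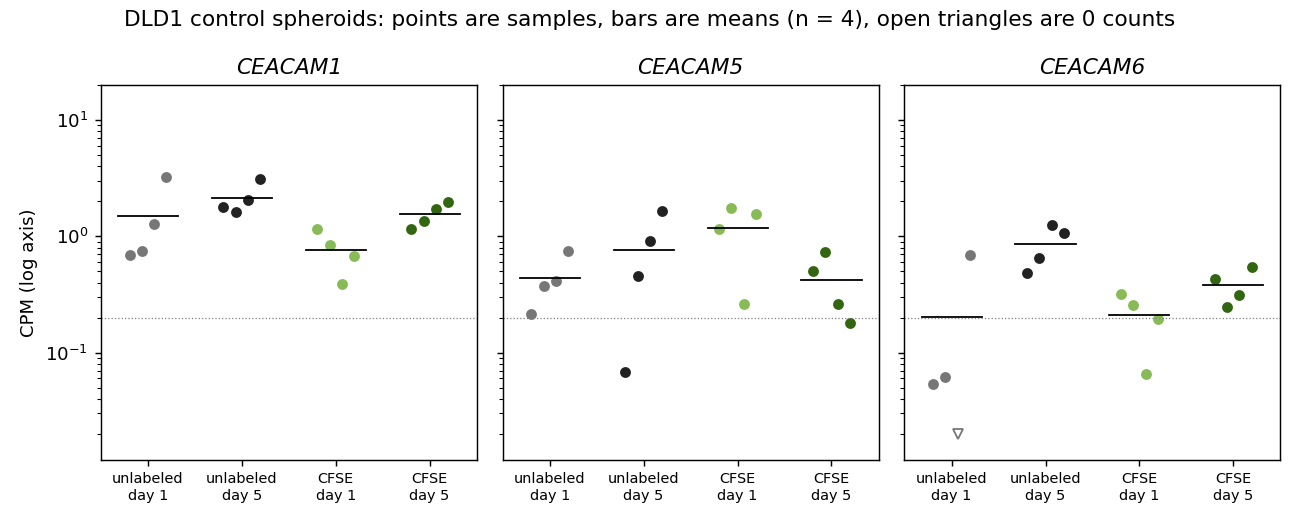
CPM on a log axis of CEACAM1, CEACAM5 and CEACAM6 in the 16 DLD1 controls, by dye and day, with a point per sample, horizontal bars for means, a dotted line near 3 counts per library and an open triangle for a sample at 0. The day 1 unlabeled group has 1 sample, replicate 4, above the other 3 for each gene, and the CEACAM5 means run from 0.420 CPM (CFSE, day 5) to 1.18 CPM (CFSE, day 1).

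With time, CEACAM6 passed the test in unlabeled cells only. Day 1 unlabeled samples held 0.0533, 0.0623, 0 and 0.687 CPM, and day 5 samples 0.481, 0.652, 1.24 and 1.07 CPM. Replicate 4 of day 1, with 13 counts where the others had 1, 1 and 0, overlapped day 5. The log2 fold change was 2.02 (SE 0.67, edgeR adjusted p = 0.0371), 1 member of 3 tested beside 25.5% of genes called in either direction. Only 4 control samples reached 10 counts of CEACAM6, namely day 1 replicate 4 and otherwise unlabeled day 5 samples. The gene thus entered mainly through the group where it was high, so its call is not independent of the filter. It could not be tested without day 1 replicate 4, and CEACAM1 then passed instead (log2 fold change 1.16, edgeR adjusted p = 0.0149). Leaving out any of 7 other unlabeled libraries changed the count to 0. Without day 5 replicate 2, 3 or 4 this was because CEACAM6 fell below the filter and was not tested. In CFSE-labeled cells none of the 3 passed, beside 39.3% of genes. There CEACAM1 went from a mean of 0.764 CPM (SD 0.317) to 1.55 CPM (SD 0.374, log2 fold change 0.98, adjusted p = 0.0987) and CEACAM5 from 1.18 CPM (SD 0.658) to 0.420 CPM (SD 0.251, log2 fold change -1.54, adjusted p = 0.0706). Both had an unadjusted p below 0.05, as did 7049 of 14518 genes, and DESeq2 called neither. CEACAM5 passed without CFSE day 1 replicate 3 (-1.87, adjusted p = 0.0246) or unlabeled day 5 replicate 1 (-1.62, adjusted p = 0.0319), and CEACAM1 without unlabeled day 1 replicate 4 (0.97, adjusted p = 0.0277), which share one fit with the labeled samples. The difference between the time effects with and without dye was not past the threshold for any member (adjusted p = 0.215 for CEACAM5, 0.581 for CEACAM6 and 0.742 for CEACAM1), and 0.999% of genes passed. CEACAM5 had an unadjusted p below 0.05 there (log2 difference -2.37), as did 2474 genes.

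The dye itself gave no call among the members. On day 1, CEACAM5 held 0.213, 0.374, 0.409 and 0.740 CPM without dye and 1.15, 1.74, 0.260 and 1.56 CPM with it. The groups overlapped through replicate 3 of the labeled samples (log2 fold change 1.45, edgeR adjusted p = 0.111, and 1.78 with adjusted p = 0.0391 without that replicate), and CEACAM1 had -0.94 (adjusted p = 0.149) and CEACAM6 0.03 (adjusted p = 0.986). Of all genes, 21.8% were called on day 1. On day 5 the values were -0.46 for CEACAM1, -0.91 for CEACAM5 and -1.19 for CEACAM6 (adjusted p = 0.535, 0.436 and 0.250), beside 5.13% of genes. CEACAM5 had an unadjusted p below 0.05 on day 1, as did 5296 genes, and no member had on day 5, and DESeq2 called no member in either. These comparisons share their 4 groups, so they are not independent of each other.

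Among the 8 other CEACAM genes, CEACAM20 had no row, and 2 had enough counts for the test across lines. Both were called higher in LRCs, as were 12.2% of all genes tested. CEACAM8, known from granulocytes, was seen almost only in HT55, at 5.88, 5.27, 2.81 and 4.64 CPM in non-LRCs and 10.3, 5.18, 9.22 and 10.4 CPM in LRCs, where the groups overlapped through LRC replicate 2 (across lines 0.75, edgeR adjusted p = 0.0213). The granulocyte markers ELANE and FCGR3B were at 0 in HT55, and the 6 granulocyte markers summed to between 2.96 and 11.1 CPM with CEACAM8 leading. CEACAM19 averaged between 1.20 and 8.97 CPM in every sorted group and rose by 0.26 across lines (adjusted p = 0.0331). In DLD1, CEACAM19 went from a mean of 4.71 to 7.67 CPM (edgeR adjusted p = 0.0132), beside 6.67% of genes called higher in LRCs. Its means in SW48 were 1.70 CPM in non-LRCs and 1.20 CPM in LRCs (adjusted p = 0.525). In the controls CEACAM19 fell with time, from 7.41 to 2.28 CPM without dye (edgeR adjusted p = 0.0117) and from 7.32 to 2.69 CPM with it (adjusted p = 0.00931). Of all genes, 25.5% and 39.3% were called there in either direction. Of the 11 pregnancy-specific glycoprotein genes, which lie in the same cluster, PSG10 had no row and none of the others passed the filter.

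Genes that work with the family were counted from lists made by hand. Over all 16603 genes tested across lines, 2033 were called higher and 1770 lower in LRCs, and the counts below stand beside those shares. Of 26 tested genes for the synthesis and attachment of GPI anchors, 1 was higher and 5 were lower in LRCs across lines, with a median log2 fold change of -0.03 against 0.01 for all genes. The smallest p-values were those of PIGU, a subunit of the transamidase (-0.25, edgeR adjusted p = 0.000366), PIGO (-0.13, 0.00512) and PIGB (-0.22, 0.0117), both of which build the anchor. Of 11 partners of the CEACAM1 tail, the kinase FYN was higher (0.17, adjusted p = 0.0268), and the calmodulin gene CALM3 did not pass (-0.12, 0.0553). Of 12 regulators of CEACAM transcription or CEACAM1 splicing, 2 were higher and 4 lower. The splicing factors HNRNPA1 (-0.27, adjusted p = 1.04e-07) and HNRNPM (-0.32, 9.88e-07) fell, and SMAD3, which relays TGF-beta signals, rose (0.35, 0.000669). Of 7 receptors that act with CEACAMs, INSR (0.20, adjusted p = 0.000621) and the fibronectin receptor subunit ITGA5 (0.45, 0.00269) rose, and TGFBR1 did not pass (-0.10, 0.0783). Of 13 tested upper-crypt colonocyte genes, 3 were higher and 1 lower. The water channel AQP8 (1.58, adjusted p = 0.000413) and the chloride exchanger SLC26A3 (0.83, 0.0170) rose and the microvillus protein VIL1 fell (-0.30, 0.0241). Both increases rested on HT55, where the groups overlapped. AQP8 had 37 counts in non-LRCs and 131 in LRCs there and at most 10 in any other sorted group. It passed the filter on low counts through its HT55 LRC samples, so its call is not independent of the filter. SLC26A3 averaged 185 and 370 CPM in HT55 and 1.03 and 1.08 CPM in SW948. Of the cell type markers, 0 of 10 tested epithelial genes were higher and 1 lower, 1 of 4 leukocyte genes (CD68, 0.77, adjusted p = 4.22e-05) was higher, the 1 granulocyte gene tested (CEACAM8) was higher, and neither the 1 endothelial nor the 2 fibroblast genes passed. The part of these markers in the CEACAM values was not tested.

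The genes whose pattern over the 64 samples was most like that of a member, by Pearson's r of log2 CPM among 16899 genes, mainly mirrored the order of the lines. For CEACAM1 they were GUCY2C, KRT20 and AOC1 (r = 0.98 each) and SLC5A1 and GPA33 (0.97). CEACAM5 was most like AOAH (0.98), GJB1 (0.96), PPP2R2C, CLDN1 and TMEM176B (0.95 each), CEACAM6 most like GARRE1 (0.95), CLDN1, GJB1 and MSL1 (0.94 each), and CEACAM7 most like LHFPL7 and TMEM176A (0.96 each), PCK1, RTL8A and EPHB1 (0.95 each). Once the mean of each of 7 strata, the 6 lines and the controls, was taken away, other genes came first. CEACAM1 was then nearest to EPB41L4B (0.77), SMPD3, MOAP1, UCA1 and CLDN4 (0.74), and CEACAM5 to FBXO32 (0.63), CEACAM6 (0.62), KRT13, CD55 and CYP2B6 (0.59). CEACAM6 was nearest to DNAJB2 (0.76), MTMR3, H2BC21, H1-2 and KRT80 (0.72), and CEACAM7 to IRF1 (0.71), SELENOM, TP53INP2, TFAP2C and SLC2A3 (0.69). Among the members themselves, r within strata was 0.62 for CEACAM5 with CEACAM6, 0.51 for CEACAM1 with CEACAM6, 0.40 for CEACAM1 with CEACAM5, 0.38 for CEACAM6 with CEACAM7, 0.22 for CEACAM5 with CEACAM7 and 0.04 for CEACAM1 with CEACAM7. The samples share lines, libraries and the difference between LRCs and non-LRCs, and these values are descriptions over 64 samples.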

How the data were processed

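The deposited files, 1 for each of the 64 samples, hold the authors' unnormalized read counts by Ensembl gene from 50-base single-end reads. The submitters' processing notes name hg19, TopHat, HTSeq and DESeq, and versions and annotation are not given in the sources used here. Reads matching several places or genes were not assigned (28.0 to 52.7 per 100 assigned reads matched several places), and rows that name no gene were left out. Symbols and exons came from GENCODE release 44 on GRCh37. Groups came from the sample labels.

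Counts were tested with edgeR 4.0.16 (quasi-likelihood, TMM, two-sided, Benjamini-Hochberg, threshold 0.05) in R 4.3.3 on genes that reached 10 counts in 4 or more samples of a fit, always on the whole table: 8 samples per line, 48 samples across lines with line as covariate or in interaction, 24 non-LRC samples between lines, and 16 controls. Log2 CPM used a prior count of 2, and RPKM used the exon length. Single values were compared by exact permutation, and intervals cover counting error only. The procedure was tested on simulated data.

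The members and lists were chosen with earlier results of these data known. Named were the 4 members, other CEACAM and pregnancy-specific glycoprotein genes with enough counts, the 3 genes of smallest p in each list (GPI anchor, CEACAM1 tail partners, regulators, receptors, upper crypt, cell type markers) and the 5 genes most like each member. Of these, 2 genes are not reported here. Alternatives were DESeq2 1.42.0, no TMM, no filter, at least 10 counts in every sample, all 48 samples in one fit, a replicate block, uniquely readable length, the 24 LRC samples between lines, and leaving out replicates, libraries or lines. The alternative without the 2 sorted libraries that stood apart was added after seeing the data. The main fits and the exact permutation were unpaired, and replicate number entered as a block only in the alternative. Replicate numbers, shared by groups in the labels, were checked for pairing, meaning same-numbered samples that deviated together with r above 0.1 in every pair. This held in HT55 (0.221 to 0.512), SW48 (0.187 to 0.611), DLD1 (0.255 to 0.504), HCT15 (0.332 to 0.561) and CFSE-labeled controls (0.158 to 0.289), and not in SW948, RKO or the other controls.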

Additional observations from a re-analysis of the deposited data

Results flagged for a closer look

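Of 45 sets of 4 replicates examined for a sample far from the others, 5 had one, and chance alone gives about 1 in 20. CEACAM6 in SW948 LRC replicate 4 was 11.8 CPM, where the other LRCs held 29.4 to 30.9 CPM. CEACAM7 in HT55 non-LRC replicate 2 was 4.97 CPM, where the others held 1.58 to 1.84 CPM. Both libraries were nearer to the other population of their line over all genes, and whether the labels or the sorting account for this was not tested. CEACAM6 in unlabeled day 1 control replicate 4 was 0.687 CPM (13 counts), in the library that lay nearer to day 5. CEACAM6 in DLD1 non-LRC replicate 4 was 1.63 CPM (21 counts), and CEACAM5 in RKO non-LRC replicate 1 was 0.758 CPM.

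The difference between LRCs and non-LRCs varied between lines for CEACAM5 (edgeR adjusted p = 0.00601) and CEACAM6 (edgeR adjusted p = 0.00970), a test that 14.3% of all genes passed. Without replicate number 1 both were above the threshold (adjusted p = 0.0592 for CEACAM5 and 0.145 for CEACAM6).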

How the results depend on the processing

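Of 1017 recomputed values, 681 left out a replicate or library. Other alternatives changed the number of members called as follows, with all genes called in either direction in brackets. These totals moved too. In HT55 (0 called, 0 genes), no filter gave 1 (102 genes) and all 48 samples in one fit gave 1 (106). In SW948 (0 called, 0 genes), DESeq2 gave 2 (244), no filter 3 (973), the replicate block 2 (501) and all 48 samples 1 (389). In SW48 (0 called, 105 genes), DESeq2 gave 1 (361). There no filter (285), the replicate block (1279) and all 48 samples (486) gave 3. In DLD1 (2 called, 1978 genes), no filter gave 3 (2089) and at least 10 counts in every sample left 1 (1936). In HCT15 (1 called, 137 genes), all 48 samples gave 0 (697). That strict filter tested no member across lines, in the interaction, in the controls over time or between lines, so the counts there were 0 by construction. The unlabeled time call was also 0 without TMM. The replicate block changed no other call by edgeR except CEACAM1 in the interaction (adjusted p = 0.00296). Leaving out replicates or libraries gave 0 to 2 members in HT55, 0 to 3 in SW948, 0 to 0 in RKO, 0 to 2 in SW48, 1 to 2 in DLD1, 0 to 0 in HCT15, 3 to 3 across lines, 0 to 1 in the interaction, 0 to 1 for time in unlabeled and in labeled controls and for dye on day 1, and 0 to 0 for dye on day 5 and for the dye by time term. In HT55 the 2 came beside 521 or 808 genes called, and in SW948 the 3 beside 940 or 1956. In DLD1 the 1 came without replicate number 4 (756 genes), where CEACAM6 fell below the filter. In SW48 the 2 came without number 2 (497 genes). Line pairs ranged from 14 to 15 for CEACAM1, 13 to 14 for CEACAM5, 12 to 13 for CEACAM6 and 8 to 8 for CEACAM7. In the 24 LRC samples CEACAM7 passed in 12 pairs, and CEACAM1 in 15 there and with DESeq2. Log2 fold changes turned direction for CEACAM1 in HT55 (range -0.013 to 0.31), in DLD1 (-0.059 to 0.38) and in the dye by time term (-0.21 to 0.98), and for CEACAM6 with dye on day 1 (-0.0054 without a filter, and -0.54 to 0.30 on leaving out samples). The CEACAM5 level in HT55 non-LRCs moved from 671 to 740 RPKM with the uniquely readable length and to 562 RPKM without TMM, and in SW948 from 45.9 to 50.6 RPKM. CEACAM7 outside HT55 and SW948 and every member in RKO had too few counts for the tests within a line, and the causes of the other changes were not tested.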
